A study of Mus musculus with 9 samples.

Results

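The comparison set the leg muscle of mice that had received aspirin, with or without a peptide hydrogel, against leg muscle of mice left untreated. Its members are all 6 libraries whose treatment label names aspirin, pooled as 1 arm, and they were set against the other 3 of the 9 libraries in the series. All 9 mice were WT, of the strain written c57b6l, and all had undergone the hindlimb model that the labels describe with both suspension and ischaemia, so the controls carried the injury too. Of the 6 mice in the arm, 3 received aspirin and 3 received aspirin combined with a peptide hydrogel, and each mouse gave 1 library. The labels give no dose, route, time after injury, age or sex. No transcript shows whether a mouse had received aspirin, so the treatment labels could not be checked against the data. Uninjured muscle and hydrogel without aspirin were not analysed here, so a difference in the arm cannot be assigned to the drug apart from the gel in the 3 mice that received both. The libraries of the mice given both are called hydrogel libraries below.

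Aspirin acetylates the cyclooxygenases, the enzymes that turn arachidonic acid into prostaglandins and thromboxane, and through the platelet enzyme it also reduces clotting. In muscle whose blood supply has been interrupted, damaged fibres are cleared by neutrophils and macrophages, satellite cells divide and fuse into new fibres, and capillaries and matrix are rebuilt. The question posed by pooling the groups is which genes stood at another level wherever aspirin was given, whatever its vehicle.

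Total counts ran from 32197791 to 48170537 per library, and 18259 of 55335 genes passed the filter on low counts. The 40 sarcomere and excitation-contraction genes of a fixed list summed to 124010 to 272510 CPM (counts scaled to a common library size) in the controls and 35632 to 365770 CPM in the arm, so every library carried the muscle transcripts its label calls for. The arm was the more uneven side in some measures, such as the share of counts in the 10 most abundant genes (SD 7.21 against 3.89 percentage points in the controls). It was not so in the share of mitochondrially encoded genes (SD 2.54 against 3.01). Aspirin replicate 1 stood apart from every other library, with 9.88% of its counts in its 10 most abundant genes against 17.7% to 30.2% elsewhere, and with a median Spearman correlation to the others of 0.780 against 0.929 to 0.954. The first principal component carried 51.9% of the variance, and that library scored 152 on it, while Hydrogel replicate 3 scored -101 at the other end. The 3 controls lay between them, from -25.7 to 49.2. None of 5 library-wide measures (the share of counts in the top 10 genes, in mitochondrially encoded genes and in ribosomal protein genes, and the scores on the first 2 components) differed between arm and controls, with adjusted p from 0.833 to 0.976 by an exact two-sided permutation test over 84 splits. The smallest possible p is 0.0119 before adjustment, so after adjustment over the 5 a single measure could not have passed 0.05.

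With edgeR's quasi-likelihood method, the arm against control gave 0 of 18259 genes (0%) with an adjusted p under 0.05, the smallest adjusted p being 0.578, for Apold1. Of all genes, 665 had an unadjusted p under 0.05 (3.64%), of which 283 were higher in the arm (1.55%) and 382 lower (2.09%). Evenly spread p-values would have put 913 genes there. In 484 genes (2.65%) the 6 arm libraries and the 3 controls did not overlap, with the arm above all controls in 237 (1.3%) and below all controls in 247 (1.35%). The median log2 fold change over all genes was 0.05, with 56.6% of genes above 0. The standard error of a log2 fold change had a median of 0.39, with quartiles of 0.26 and 0.60, which limits what 6 against 3 libraries could separate. DESeq2 on the same counts called 16 genes (0.0876%), 9 lower (0.0493%) and 7 higher (0.0383%), and its calls are named below beside the edgeR values. All gene values below are therefore measurements of genes that missed the edgeR threshold.

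The 2 groups inside the arm were also set against each other. In the test of the 3 hydrogel against the 3 aspirin libraries, taken from a fit of all 3 groups, 1996 genes had an unadjusted p under 0.05 (10.9%), 606 higher with hydrogel (3.32%) and 1390 lower (7.61%). Whatever their p, 46.7% of genes lay above 0 in that comparison and 53.3% below. Here too edgeR called 0 genes, with a smallest adjusted p of 0.453, while DESeq2 called 156 (0.854%). The number of small p-values depended on single libraries. Without Aspirin replicate 1 it was 973 between the groups and 1048 for the arm, without Hydrogel replicate 3 it was 860 and 623, and without Aspirin replicate 3 it was 4193 and 594. Without the first 2 of these libraries together it was 751 between the groups and 835 for the arm.

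**Figure D1:**
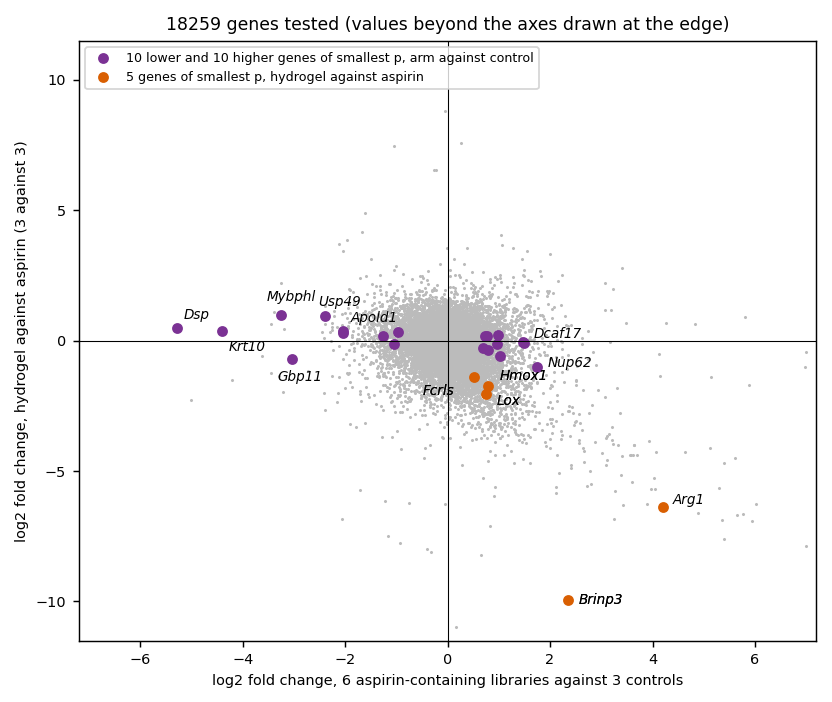
Each grey point is 1 of 18259 genes, with the log2 fold change of the 6 aspirin-containing libraries against the 3 controls on the horizontal axis and that of hydrogel against aspirin on the vertical axis. The 20 genes of smallest p for the arm (purple) run from -1.0 to 0.97 on the vertical axis, where their choice favours small values because spread within the arm raises p. The 5 genes of smallest p between the groups (orange) run from -1.39 (Fcrls) to -9.96 (Brinp3) on that axis, with Arg1 at 4.21 and -6.39. They were chosen by the difference that this axis shows, so their distance from 0 follows from the choice.

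Apold1 and Usp49 had the 2 smallest p-values of all genes, and Cish is a textbook target of the transcription factor STAT5, so the promoters of these 3 are shown with the motifs found in them. The RefSeq sequences (GRCm38.p6, 250 bases before to 30 after the start, 5′ to 3′ on the plus strand on which all 3 genes lie) cover chr6:134981751-134982030 for Apold1, chr17:47630440-47630719 for Usp49 and chr9:107296409-107296688 for Cish. Capitals mark matches, on either strand, to 6 motifs searched: the STAT palindrome TTCNNNGAA, the AP-1 site TGANTCA, the E-box CACGTG, the GC box GGGCGG, the glucocorticoid half-site AGAACA and the TATA box TATAAA.
Apold1: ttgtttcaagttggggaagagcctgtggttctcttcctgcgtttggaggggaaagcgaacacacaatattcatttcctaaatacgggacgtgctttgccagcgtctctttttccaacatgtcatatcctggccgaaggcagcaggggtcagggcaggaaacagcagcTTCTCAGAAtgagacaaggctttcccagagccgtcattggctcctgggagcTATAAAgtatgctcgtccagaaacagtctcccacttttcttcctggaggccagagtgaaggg
Usp49: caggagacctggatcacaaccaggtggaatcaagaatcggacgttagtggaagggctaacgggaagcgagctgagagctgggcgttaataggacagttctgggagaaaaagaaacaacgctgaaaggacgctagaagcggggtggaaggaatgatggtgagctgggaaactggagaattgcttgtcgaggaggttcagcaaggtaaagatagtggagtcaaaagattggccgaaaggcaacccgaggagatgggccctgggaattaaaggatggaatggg
Cish: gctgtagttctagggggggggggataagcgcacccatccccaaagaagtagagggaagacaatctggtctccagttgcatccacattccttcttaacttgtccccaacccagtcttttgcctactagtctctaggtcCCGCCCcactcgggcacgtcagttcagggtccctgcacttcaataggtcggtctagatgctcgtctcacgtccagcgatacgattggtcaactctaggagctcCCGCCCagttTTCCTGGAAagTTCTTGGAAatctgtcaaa
The Apold1 window holds 1 STAT palindrome at -83 to -75 and a TATA box at -32 to -27, counted from the start. For Apold1 and Cish this RefSeq start lies downstream of the gene start in the GENCODE annotation used for gene coordinates (134981718 and 107296026). Both windows lie wholly inside the gene as annotated there, while for Usp49 the starts coincide. The Cish window holds 2 STAT palindromes, at 1 to 9 and 12 to 20, and 2 GC boxes on the minus strand at -113 to -108 and -10 to -5. The Usp49 window holds none of the 6 motifs. Of 32851 promoter windows of this length, 7.83% hold a STAT palindrome, 7.46% an AP-1 site, 6.79% this E-box, 34.7% a GC box, 17.8% the half-site and 13.1% the TATA box. None of the motifs overlapped another in these windows, and a match is a description of letters, not evidence of binding.

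Apold1 had the smallest p of all genes. It encodes an endothelial early response protein, and lies on chromosome 6 from 134981718 to 134986836 (mm10, plus strand). It stood at 22.6, 29.0 and 17.6 CPM in the 3 controls and at 3.69 (lowest), 5.54 (median) and 9.07 CPM (highest) in the 6 arm libraries. The highest arm library lay well below the lowest control. The log2 fold change was -2.04 ± 0.28 (SE), a 4.10-fold difference, with a 95% interval from -2.67 to -1.41. Both groups lay on the same side, at -2.22 for aspirin and -1.87 for hydrogel against the same controls, and the difference between them was 0.35 ± 0.34 (unadjusted p = 0.323 in edgeR). Over 20 other ways of processing the counts, its log2 fold change ran from -2.21 to -1.85. DESeq2 gave it an adjusted p of 4.5e-06.

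Usp49, a deubiquitinase of histone H2B, lies on chromosome 17 from 47630690 to 47686738 on the plus strand. It stood at 10.9, 12.7 and 8.29 CPM in the controls, and at 1.15, 1.79 and 3.64 CPM (lowest, median, highest) in the arm. The arm and the controls did not overlap, and the fold difference was 5.25 (log2 -2.39 ± 0.37, edgeR adjusted p = 0.768, DESeq2 adjusted p = 6.1e-05). Hydrogel libraries lay 0.93 ± 0.36 above aspirin libraries (edgeR unadjusted p = 0.0294, adjusted 0.453). On the same strand, 4392 of its exonic bases also belong to the annotated gene Gm20517, so how its reads were split is uncertain. Of 18 tested genes that add or remove ubiquitin on H2B, Usp49 alone had an unadjusted p under 0.05 (3.64% of all genes). In that list 13 of the 18 lay above 0, with a median of 0.07. Usp22, the deubiquitinase of the SAGA complex, stood at -0.25 ± 0.16 and Rnf20, an H2B ubiquitin ligase, at 0.14 ± 0.16.

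The 8 further lower genes of smallest p also lay below control in both groups, and 7 of the 8 had no overlap between arm and controls. Their choice by small p favours this, and 1.35% of all genes lay below all controls. Alkal2, a ligand of the receptor tyrosine kinases ALK and LTK, stood at 1.54 to 2.99 CPM in the controls and 0.257 to 0.609 CPM in the arm (-2.04 ± 0.37). Mybphl, a paralogue of the myosin-binding H protein, stood at 1.89 to 3.57 CPM against 0.0469 to 0.756 CPM (-3.26 ± 0.63). Gbp11, annotated as a polymorphic pseudogene among the interferon-inducible guanylate-binding proteins, stood at 3.37 to 4.73 against 0.0667 to 0.878 CPM (-3.04 ± 0.63). The low ends of both ranges are near the floor of 3 counts per library, which lies between 0.0554 and 0.100 CPM. Sema7a, a membrane-anchored semaphorin, stood at 21.6 to 30.7 CPM in the controls and 9.56 to 15.6 CPM in the arm (-0.97 ± 0.20). Opn3, a non-visual opsin, stood at 3.37 to 4.48 against 1.30 to 2.10 CPM (-1.26 ± 0.27). Sardh, the mitochondrial sarcosine dehydrogenase, stood at 6.50 to 9.66 against 2.67 to 5.13 CPM (-1.05 ± 0.26). DESeq2 called Alkal2, Mybphl, Gbp11, Sema7a and Opn3 (adjusted p 0.00135 to 0.0343) and did not call Sardh (0.0651). Alkal2 shares 529 exonic bases in antisense with the more abundant Acp1, Opn3 shares 461 on the same strand with Chml, and Gbp11 has close paralogues, so the counts of these 3 are uncertain.

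Dsp and Krt10, the remaining 2, are genes of epidermis, and both were far higher in Control replicate 1 than in any other library. Dsp, which encodes the desmosomal protein desmoplakin, stood at 33.4, 0.804 and 3.32 CPM in Control replicates 1 to 3 and at 0 to 0.581 CPM in the arm (-5.29 ± 1.13, DESeq2 adjusted p = 0.00242). Krt10, a keratin of upper epidermis, stood at 60.0, 1.21 and 1.60 CPM in the controls and 0.772 to 1.35 CPM in the arm (-4.41 ± 1.00), so only Control replicate 1 was far from the arm. Without that library the log2 fold change was -0.51 for Krt10 and -2.69 for Dsp, whose other controls still lay above the arm. All 5 tested members of a list of 12 keratinocyte and skin markers lay below 0, with a median of -3.19 that became -0.29 without Control replicate 1. The list summed to 26.5 to 168 CPM in the controls and 15.1 to 31.6 CPM in the arm, and the part of skin in these values was not tested further. Perp, another desmosomal gene of the list, stood at 40.3, 0.536 and 1.31 CPM in the controls and 0.210 to 3.87 CPM in the arm, and its log2 fold change of -3.19 became 0.74 without that library.

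Of genes higher in the arm, Zfp397, a zinc finger protein, had the smallest p. It stood at 20.7, 21.6 and 18.6 CPM in the controls and at 29.7, 32.7 and 41.1 CPM (lowest, median, highest) in the arm. All 6 arm libraries lay above all 3 controls, and the log2 fold change of 0.73 ± 0.16 (DESeq2 adjusted p = 0.0137) stayed between 0.66 and 0.77 under 20 alternatives. Dcaf17, a substrate adaptor of the CUL4 ubiquitin ligase, stood at 2.26 to 5.38 CPM against 7.45 to 13.5 CPM (1.5 ± 0.34, DESeq2 adjusted p = 0.0220). Grk3, a kinase that switches off G protein-coupled receptors, stood at 6.63 to 8.91 against 11.2 to 20.9 CPM (0.99 ± 0.24). The other 7 higher genes were Zfp142 (0.78), Zfp60 (1.47), the mitotic kinase Nek6 (0.70), the nucleoporin Nup62 (1.75), the endosomal WASH complex subunit Washc4 (0.79), the RNA-binding Rbm12b2 (1.03) and the start-codon factor Eif5 (0.97), given as log2 fold changes. In 6 of these 7 the arm lay above all controls (1.3% of all genes), which their choice by small p favours. Nup62 was the exception, because Hydrogel replicate 1 stood at 7.16 CPM and the highest control at 7.21 CPM. Zfp142 shares 2101 exonic bases in antisense with the more abundant Plcd4, Nek6 shares 405 with Psmb7, and Rbm12b2 has a close paralogue, so these counts are uncertain.

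**Figure D2:**
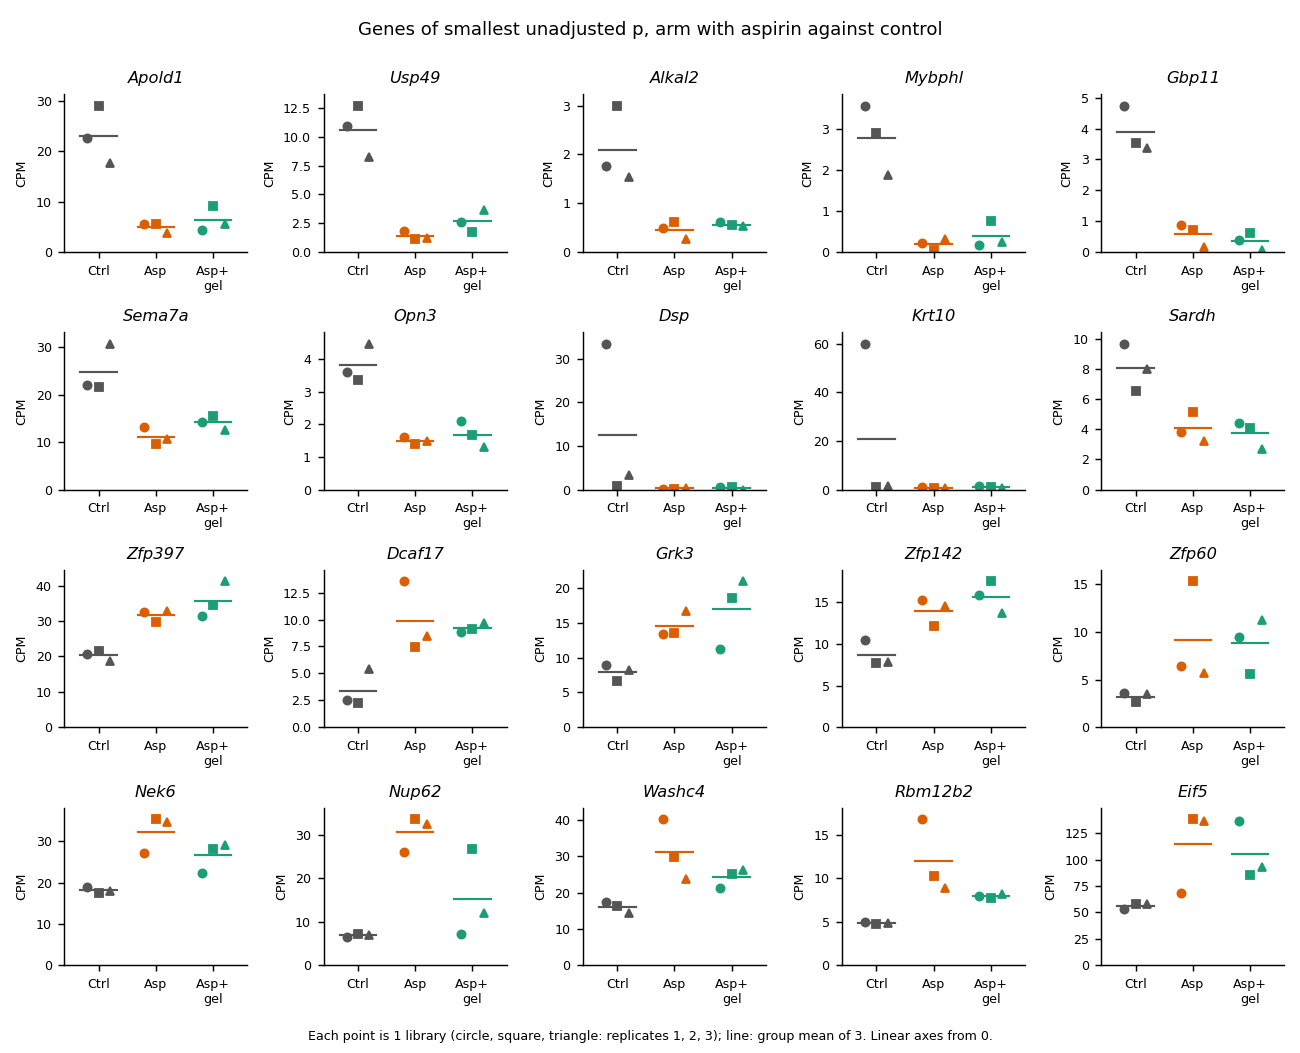
CPM of the 10 lower and 10 higher genes of smallest unadjusted p in each library (linear axes from 0), with 3 control, 3 aspirin and 3 hydrogel libraries and the group mean as a line. In 9 of the 10 lower genes and 9 of the 10 higher genes the arm does not overlap the controls (2.65% of all genes). The genes were chosen by small p in this comparison, so the lack of overlap follows largely from the choice. In Dsp and Krt10 Control replicate 1 sets the control mean.

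Of the 16 genes that DESeq2 called, 10 are among those just described. The other 6 were outside the rule for named genes, being unnamed, predicted or under 1 CPM, and are given because DESeq2 called them. Fam184a stood at 0.524 to 1.09 CPM in the controls and 0.134 to 0.242 CPM in the arm. 5330438D12Rik stood at 0.175 to 0.246 against 0.667 to 2.08 CPM, Ccnb2-ps at 0.320 to 0.514 against 0.943 to 1.67 CPM, Gm42979 at 0.938 to 1.37 against 1.96 to 2.69 CPM and Gm43185 at 0.0554 to 0.640 against 0.821 to 3.90 CPM. ENSMUSG00000116024 was high in only 3 of the 6 arm libraries (6.03, 4.63 and 3.14 CPM) and at 0.0334 to 0.0907 CPM in the other 3, beside 0.0223 to 0.0554 CPM in the controls.

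Cish, which encodes a SOCS-family inhibitor induced by STAT5 downstream of growth hormone and cytokine receptors, was lower in all 6 arm libraries but by unequal amounts. It stood at 27.0, 12.8 and 18.4 CPM in the controls, at 3.03, 2.11 and 2.77 CPM with aspirin and at 3.56, 7.80 and 11.01 CPM with hydrogel. The arm did not overlap the controls (-1.94 ± 0.51, edgeR unadjusted p = 0.00371, DESeq2 adjusted p = 0.220), and the hydrogel libraries all lay above the aspirin libraries (1.5 ± 0.44, unadjusted p = 0.00753, adjusted 0.453). Of 18 tested genes of growth hormone and STAT5 signalling, 13 lay below 0, with a median of -0.15. At an unadjusted p under 0.05, 2 of the 18 were lower (2.09% of all genes).

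A similar order held for 2 members of the list of limb patterning and homeobox factors. Irx5, an Iroquois homeobox factor, stood at 5.58, 7.75 and 4.86 CPM in the controls, 0.668, 0.890 and 0.6002 CPM with aspirin and 3.02, 3.57 and 1.30 CPM with hydrogel. All 6 arm libraries lay below control (-1.86 ± 0.58), and the 2 groups did not overlap each other (1.87 ± 0.44, edgeR adjusted p = 0.453, DESeq2 adjusted p = 0.0111). Tbx1, a T-box factor of branchiomeric muscle, stood at 16.4 to 24.5 CPM in the controls, 3.80 to 4.94 CPM with aspirin and 6.04 to 18.9 CPM with hydrogel. In that gene 1 hydrogel library lay within the range of the controls. Of 28 tested members of that list, 4 were lower and 2 higher at an unadjusted p under 0.05 (2.09% and 1.55% of all genes), and the median was -0.08, beside 0.05 for all genes.

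Gene lists were read by their counts and medians beside those of all genes, where 43.4% lay below 0 and the median was 0.05. In bulk tissue fewer cells of a type and less RNA per cell cannot be told apart. Endothelial markers were the list with the most members at a small p: 32 of 35 lay below 0, 9 had an unadjusted p under 0.05 (all lower, background 2.09%), and in 5 the arm lay below all controls (background 1.35%). The median was -0.49, and it ran from -0.62 to -0.41 over 20 alternatives. Apold1, described above, is one of the 35. Esam, an adhesion molecule of endothelial tight junctions, stood at 34.3, 46.0 and 33.0 CPM in the controls and 18.2, 21.6 and 32.1 CPM (lowest, median, highest) in the arm (-0.69 ± 0.21). Cldn5, the claudin that seals endothelial junctions, stood at 22.9, 47.98 and 24.5 CPM against 5.71, 14.5 and 21.2 CPM (-1.22 ± 0.41). In both genes the highest arm library lay just below the lowest control, and Cldn5 stood at -0.81 without Control replicate 2. Sox17, an arterial transcription factor, overlapped (5.93 to 13.6 CPM against 4.54 to 7.24 CPM, -0.79 ± 0.28), as did Cdh5, which encodes VE-cadherin, the adhesion molecule that defines endothelium (104 to 203 against 34.8 to 143 CPM, -0.78 ± 0.43). The list summed to 2291 to 3622 CPM in the controls and 1163 to 2990 CPM in the arm. The median was -0.90 for the aspirin group and -0.36 for the hydrogel group against the same controls, and 31 of 35 members lay higher with hydrogel than with aspirin (background 46.7%).

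Smooth muscle and pericyte markers lay the same way in 17 of 18 genes, with a median of -0.33 and 3 lower at an unadjusted p under 0.05 (background 2.09%). Mcam, an adhesion molecule of pericytes and vessels, stood at 58.4 to 112 CPM in the controls and 18.8 to 67.9 CPM in the arm (-0.92 ± 0.37). Myh11, the myosin heavy chain of smooth muscle, stood at 30.3 to 46.2 against 15.5 to 32.5 CPM (-0.61 ± 0.25). Among 23 angiogenic growth factors and receptors the median was -0.13, with 1 lower at an unadjusted p under 0.05 (background 2.09%). Vegfa, the main endothelial growth factor, stood at 73.2 to 192 CPM in the controls and 26.2 to 121 CPM in the arm (-0.49 ± 0.46). Pgf, a related factor, stood at 2.03, 5.94 and 2.09 CPM against 1.04 to 2.08 CPM (-1.03 ± 0.40), where Control replicate 2 alone was far from the arm and the value without it was -0.34.

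Extracellular matrix genes lay below 0 in 32 of 44, with 6 lower and 1 higher at an unadjusted p under 0.05 (background 2.09% and 1.55%) and 5 with the arm below all controls (background 1.35%). The 4 lower members of smallest p are described here. Eln, elastin, stood at 254, 104 and 118 CPM in the controls and 61.9, 81.5 and 101 CPM (lowest, median, highest) in the arm (-0.95 ± 0.30). Col4a1, a chain of basement membrane collagen, stood at 667, 762 and 433 CPM against 265, 354 and 407 CPM (-0.84 ± 0.27). Neither gene overlapped between arm and controls, and neither differed between the 2 groups of the arm at an unadjusted p under 0.05. Control replicate 1 stood apart in Eln, whose log2 fold change was -0.43 without it. Col15a1, another basement membrane collagen, stood at 136 to 256 CPM against 47.5 to 139 CPM (-1.0 ± 0.35) and Col5a3, a minor fibrillar chain, at 149 to 350 against 82.2 to 164 CPM (-0.83 ± 0.31, or -0.48 without Control replicate 2). Col1a1, the main fibrillar chain of scar, stood at 1359 to 2374 CPM in the controls and 956 to 1873 CPM in the arm (-0.35 ± 0.35). The list was also where the groups parted, with medians of 0.08 for aspirin and -0.66 for hydrogel and 15 members lower with hydrogel at an unadjusted p under 0.05 (background 7.61%).

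Adipocyte markers had the lowest median of any list of more than 20 genes, -0.92, with 24 of 25 below 0, 7 lower at an unadjusted p under 0.05 (background 2.09%) and 3 with the arm below all controls (background 1.35%). The median became -0.52 without Control replicate 2 and -0.55 without Aspirin replicate 1 and Hydrogel replicate 3. By group it was -1.23 for aspirin and -0.66 for hydrogel, and all 25 members lay higher with hydrogel than with aspirin (background 46.7%). Pck1, the enzyme of gluconeogenesis and of glyceride synthesis in fat, stood at 206, 486 and 210 CPM in the controls and 17.6, 55.8 and 149 CPM (lowest, median, highest) in the arm (-2.0 ± 0.61). Adrb3, the beta-adrenergic receptor of fat cells, stood at 20.8, 27.7 and 9.22 CPM against 0.706, 4.25 and 8.95 CPM (-2.06 ± 0.64). The arm lay below every control in both genes. Adipoq, the hormone adiponectin that defines fat cells, stood at 194 to 293 CPM against 45.8 to 208 CPM (-1.15 ± 0.48), and Cfd, the fat-cell protease adipsin, at 849 to 1154 against 89.6 to 874 CPM (-1.44 ± 0.61). Hydrogel replicate 1 was the arm library nearest to control in Adipoq and Cfd. Lipe, hormone-sensitive lipase, stood at 144 to 335 CPM against 32.8 to 205 CPM (-1.30 ± 0.52, or -0.84 without Control replicate 2). The list summed to 12809 to 19977 CPM in the controls and 4506 to 16572 CPM in the arm, and how much fat each muscle sample held was not tested.

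Genes of fatty acid uptake and oxidation lay below 0 in 31 of 35 (median -0.33), 2 of them at an unadjusted p under 0.05 (background 2.09%). The median was -0.63 for aspirin and -0.07 for hydrogel, and 30 of 35 members lay higher with hydrogel than with aspirin (background 46.7%). Ucp3, a mitochondrial carrier of muscle that fatty acids induce, stood at 86.6, 242 and 223 CPM in the controls and 38.4, 55.9 and 129 CPM (lowest, median, highest) in the arm (-1.33 ± 0.48). Pdk4, the kinase that shuts pyruvate out of the mitochondrion in fasting, stood at 381, 1138 and 899 CPM against 89.1, 216 and 707 CPM (-1.53 ± 0.64). Control replicate 1 lay within the range of the arm in both. Glucocorticoid response genes, which include Pdk4 and Per1, lay below 0 in 19 of 24 with a median of -0.44. Of these 24, 3 were lower at an unadjusted p under 0.05 (background 2.09%). Immediate early genes lay below 0 in 25 of 33, with a median of -0.30 (-0.002 for aspirin and -0.59 for hydrogel). One member, Maff, a small bZIP factor, stood at 2.99 to 10.9 CPM against 1.57 to 3.79 CPM (-1.34 ± 0.42, or -0.80 without Control replicate 2). Another, Rhob, a stress-induced GTPase, stood at 67.2 to 106 against 44.3 to 70.7 CPM (-0.62 ± 0.23).

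Circadian clock genes did not share a direction, with 10 of 19 above 0. Per1, a repressor of the clock, stood at 49.3, 237 and 99.8 CPM in the controls and 20.03, 57.6 and 74.3 CPM (lowest, median, highest) in the arm (-1.32 ± 0.49). Ciart, another clock repressor, stood at 1.57, 14.3 and 7.74 CPM in the controls and 1.28 to 3.75 CPM in the arm (-1.66 ± 0.57). Clock, the activator, stood at 12.1, 29.4 and 12.5 CPM against 25.8 to 34.7 CPM (0.77 ± 0.30). The controls differed among themselves by more than the arm did in each of the 3. Without Control replicate 2 the log2 fold changes were -0.53 for Per1, -0.90 for Ciart and 1.31 for Clock. The hour of sampling is not in the labels, so its part could not be told apart from treatment.

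Fibre-type genes did not share 1 pattern. Myh1, the fast IIx myosin heavy chain, stood at 13197, 7004 and 12005 CPM in the controls and 1183, 4630 and 6582 CPM (lowest, median, highest) in the arm, with no overlap (-1.29 ± 0.53). Mybpc1, the slow myosin-binding protein C, stood at 2500, 1855 and 2395 CPM against 457, 1008 and 1822 CPM, again with no overlap (-1.10 ± 0.42). Myh4, the fast IIb myosin heavy chain, stood at 23375, 54429 and 62471 CPM in the controls and from 2692 to 122430 CPM in the arm (0.47 ± 0.92), so this most abundant fast isoform spanned the controls on both sides. Slow fibre genes lay below 0 in 12 of 13 with a median of -0.64, 0 of them at an unadjusted p under 0.05. Their sum was 1044, 453 and 1379 CPM in the controls and 254 to 1091 CPM in the arm, and the median ran from -0.98 without Control replicate 2 to -0.26 without Control replicate 3. Myh7, the slow myosin heavy chain, stood at 135, 26.0 and 311 CPM in the controls and 3.70 to 166 CPM in the arm (-1.50 ± 1.01, or -0.56 without Control replicate 3), and the muscles of the leg pooled in each sample are not named in the labels. The 40 sarcomere and excitation-contraction genes had a median of 0.03 for the arm that joined -0.36 for aspirin and 0.35 for hydrogel, all 40 lying higher with hydrogel than with aspirin (background 46.7%). The 2 groups overlapped in the list's sum, which was 35632, 178660 and 278770 CPM in Aspirin replicates 1 to 3 and 211290, 228830 and 365770 CPM in Hydrogel replicates 1 to 3. The lowest and highest of these are the libraries at the ends of the first principal component.

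**Figure D3:**
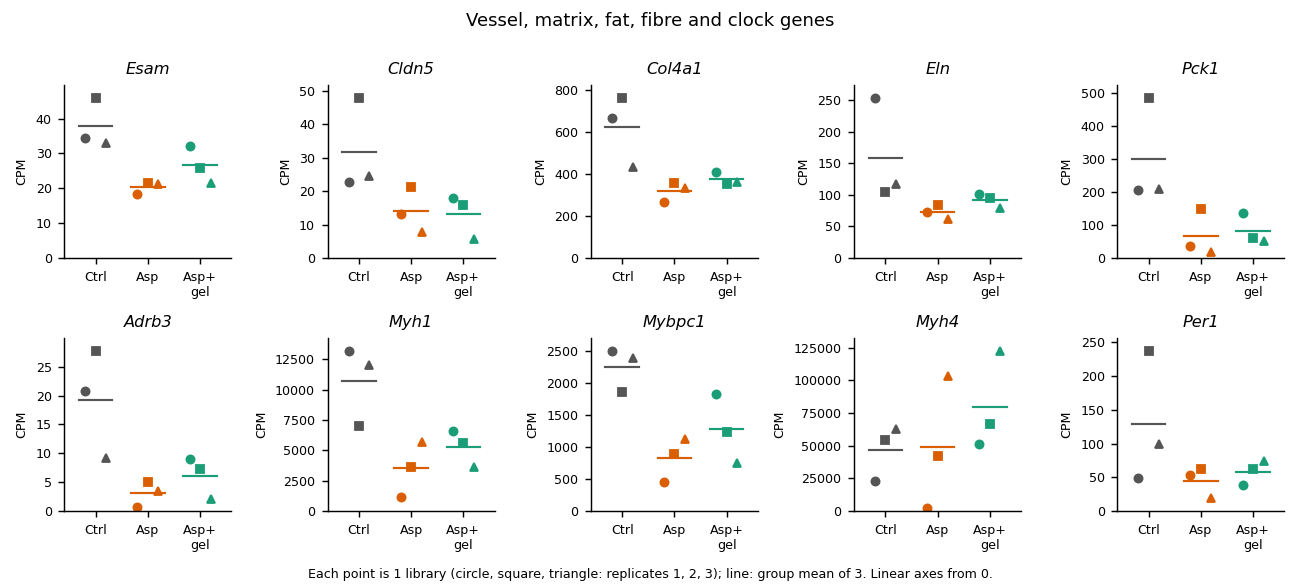
CPM by library (linear axes from 0) for endothelial genes (Esam, Cldn5), matrix genes (Col4a1, Eln), fat-cell genes (Pck1, Adrb3), fibre genes (Myh1, Mybpc1, Myh4) and the clock gene Per1, with lines at group means. The 6 arm libraries lie below all 3 controls in every panel except Myh4 and Per1, where the ranges overlap.

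Satellite cell and myogenic regulators were split within the list. Pax3, a transcription factor of muscle progenitors, stood at 1.09, 1.27 and 1.54 CPM in the controls and at 0 to 0.411 CPM in the arm, without overlap (-2.46 ± 0.72), at levels near the floor of 3 counts. Pax7, the factor that defines satellite cells, stood at 4.71 to 8.08 CPM against 1.68 to 10.01 CPM (-0.02 ± 0.46). Myf5, an early myogenic factor, stood at 1.01 to 2.36 against 2.09 to 4.04 CPM (0.89 ± 0.38), and Myod1, which commits cells to muscle, at 6.59 to 17.4 against 8.09 to 39.8 CPM (1.00 ± 0.47). In that list 16 of 24 genes lay below 0 and the median was -0.09. Of the atrophy ligases, Fbxo32 stood at 111, 310 and 351 CPM in the controls and 50.6 to 796 CPM in the arm (-0.09 ± 0.77), and Trim63 at 68.4, 320 and 295 CPM against 109 to 600 CPM (-0.01 ± 0.64). The highest value of both was in Aspirin replicate 2, and the sign of both log2 fold changes changed under other settings. Tgfbr1, a receptor of TGF-beta, stood at 23.6 to 34.9 CPM against 33.0 to 56.2 CPM (0.59 ± 0.21). It was the single member at an unadjusted p under 0.05 among 34 genes of that signalling list, no larger a share than the 3.64% of all genes.

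The targets of aspirin did not stand apart in mRNA. Ptgs1, cyclooxygenase 1, stood at 8.81, 6.19 and 4.28 CPM in the controls and 3.50, 4.43 and 4.96 CPM (lowest, median, highest) in the arm (-0.59 ± 0.26, unadjusted p = 0.0491 in edgeR). Ptgs2, the inducible cyclooxygenase 2, stood at 0.259, 0.179 and 0.844 CPM against 0.145, 1.43 and 4.32 CPM (2.01 ± 0.95, unadjusted p = 0.0612). Both genes overlapped between arm and controls. Hpgds, which makes prostaglandin D2 in haematopoietic cells, stood at 5.14 to 8.41 CPM against 6.37 to 22.7 CPM (1.00 ± 0.42), and Ptges, the inducible prostaglandin E synthase, at 11.4 to 18.6 against 6.31 to 14.3 CPM (-0.45 ± 0.30). Of 22 tested genes of prostanoid synthesis and reception, 12 lay above 0 and the median was 0.12. At an unadjusted p under 0.05, 1 was higher and 1 lower (background 1.55% and 2.09%). By group the median was 0.38 for aspirin and -0.17 for hydrogel, and 17 of the 22 lay lower with hydrogel than with aspirin (background 53.3%). Alox5, the lipoxygenase that starts leukotriene synthesis, stood at 0.582 to 1.70 CPM in the controls. It was at 2.20 to 2.79 CPM with aspirin and 1.21 to 1.84 CPM with hydrogel (0.82 ± 0.44 for the arm). These are transcript levels, and aspirin acts on the enzymes themselves.

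The 5 genes of smallest p between the groups were all higher in the aspirin libraries than in the hydrogel libraries. They were chosen by that difference, so its size follows from the choice. Arg1, the arginase of alternatively activated macrophages, had the smallest p between the groups. It stood at 0.869, 0.156 and 0.407 CPM in the controls, at 24.9, 4.71 and 23.6 CPM with aspirin and at 0.387, 0.151 and 0.0667 CPM with hydrogel. Its arm log2 fold change of 4.21 ± 1.92 (edgeR unadjusted p = 0.0534) joined a group at 5.19 and a group at -1.20, which differed by -6.39 ± 0.98 (adjusted p = 0.453, DESeq2 adjusted p = 2.8e-10). Hmox1, the haem-degrading enzyme, stood at 26.9 to 43.6 CPM in the controls, 66.4 to 107 with aspirin and 20.1 to 31.8 with hydrogel, an arm value of 0.80 ± 0.54. Lox, which cross-links collagen and elastin, stood at 31.8 to 42.6 CPM, 73.6 to 155 and 20.8 to 31.6 in the same order (0.75 ± 0.63). Fcrls, a macrophage and microglial receptor-like protein, stood at 8.64 to 11.8, 16.8 to 24.3 and 6.59 to 9.97 CPM (0.51 ± 0.44). In these 4 genes the hydrogel libraries lay near or below the controls and every aspirin library above them, so the pooled value described neither group. Brinp3, a neural cell cycle inhibitor, was at 0 in all 3 hydrogel libraries and 0.656 to 4.39 CPM with aspirin.

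Neutrophil markers had the highest arm median of any list, 0.90, made of 1.65 for aspirin and -1.49 for hydrogel. 17 of 21 lay above 0, 0 of them at an unadjusted p under 0.05, and the median became -0.44 without Aspirin replicate 1. Csf3r, the receptor of granulocyte colony-stimulating factor, stood at 8.61, 2.95 and 8.90 CPM in the controls and at 4.57, 9.15 and 37.6 CPM (lowest, median, highest) in the arm (1.24 ± 0.76). Cytokines and chemokines had a median of 0.45 (1.10 and -0.53), which became -0.02 without the same library. Of 32 tested, 0 were higher and 2 lower at an unadjusted p under 0.05 (background 1.55% and 2.09%). Those lower were Cx3cl1 (-0.92 ± 0.36) and Cxcl10, described below. Cxcl5, which attracts neutrophils, stood at 0.112 to 0.443 CPM in the controls and at 17.3, 0.187 and 25.1 CPM with aspirin, while the hydrogel libraries reached 0.167 CPM. Il1b, the inflammatory interleukin 1 beta, stood at 0.134 to 2.42 CPM in the controls, 28.0, 2.30 and 36.2 CPM with aspirin and 0.234 to 0.968 CPM with hydrogel. In both, Aspirin replicate 2 lay at the level of the controls. Cxcl10, an interferon-induced chemokine, was the one with a control apart: 2.62, 2.39 and 39.4 CPM against 0.467 to 6.51 CPM in the arm, and its log2 fold change of -2.15 became 0.42 without Control replicate 3.

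Macrophage markers lay above 0 in 27 of 30 (median 0.50; 1.00 for aspirin and -0.28 for hydrogel), and the median stayed above 0 in 20 alternatives, from 0.19 to 1.06. None of them had an unadjusted p under 0.05. Their summed level was 1398 to 4660 CPM in the controls and 1210 to 6190 CPM in the arm. Adgre1, the F4/80 antigen that defines mouse macrophages, stood at 21.8 to 42.7 CPM against 19.5 to 116 CPM (0.86 ± 0.53). Of 23 markers of resident and alternatively activated macrophages 19 lay above 0 (median 0.41, made of 0.81 for aspirin and -0.13 for hydrogel). Hydrogel libraries lay lower than aspirin libraries in 19 of the 23 (background 53.3%). Stab1, a scavenger receptor of such cells, was the only one of the 23 at an unadjusted p under 0.05, close to the share of all genes (3.64%). It stood at 46.7 to 74.5 CPM in the controls and 69.7 to 120 CPM in the arm (0.57 ± 0.23), with only Control replicate 2 inside the range of the arm. Mrc1, the mannose receptor CD206, stood at 45.2 to 68.9 CPM in the controls. It was at 58.8 to 264 CPM with aspirin and 53.9 to 78.7 CPM with hydrogel (0.94 ± 0.54 for the arm). F13a1, the clotting transglutaminase of macrophages, stood at 40.6 to 58.9, 103 to 127 and 25.8 to 67.0 CPM in that order (0.78 ± 0.43).

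**Figure D4:**
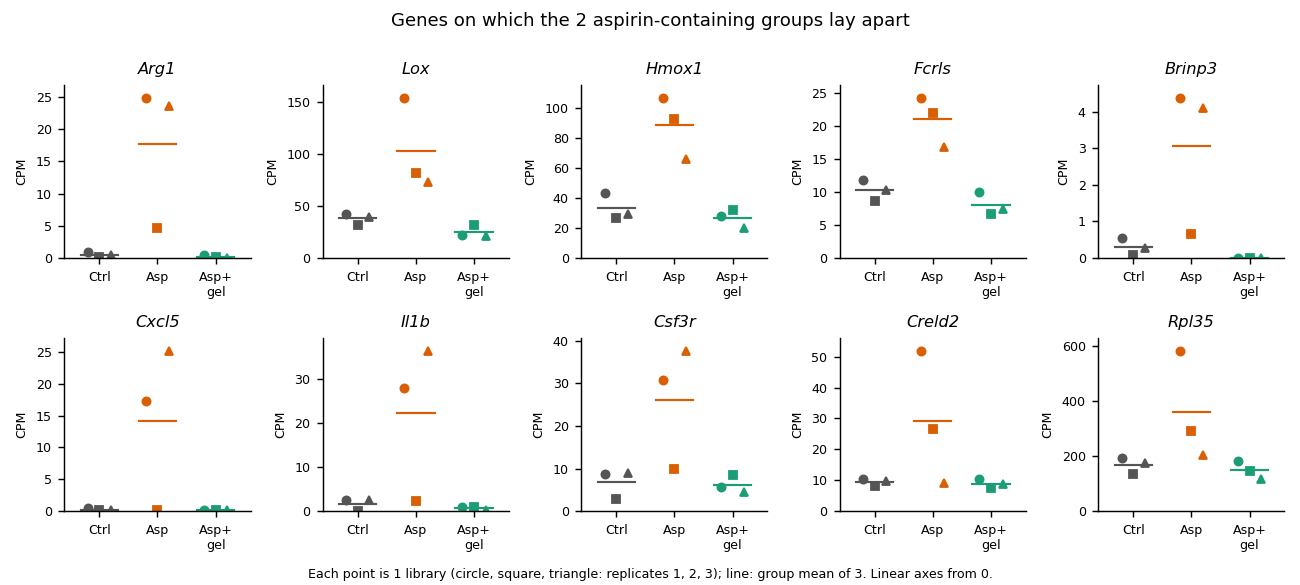
CPM by library (linear axes from 0) for the 5 genes of smallest p between the 2 aspirin-containing groups (Arg1, Lox, Hmox1, Fcrls, Brinp3) and for Cxcl5, Il1b, Csf3r, Creld2 and Rpl35, with lines at group means. The highest aspirin library lies above the controls in all 10 panels, while the hydrogel libraries lie at or below the level of the controls. Arg1 runs from 4.71 to 24.9 CPM with aspirin. Aspirin replicate 2 lies at the level of the controls in Cxcl5 and Il1b, and Aspirin replicate 3 in Creld2. The first 5 were chosen by the difference between the groups, and the other 5 to show more such genes. The shared pattern therefore follows from the choice.

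The lists of ribosomal protein genes and cell cycle genes were likewise opposed within the arm. Ribosomal protein genes lay above 0 in 75 of 76 with a median of 0.27, joined from 0.72 for aspirin and -0.33 for hydrogel, and the median became -0.09 without Aspirin replicate 1. Rpl35, of the large subunit, stood at 134 to 192 CPM in the controls and 118 to 581 CPM in the arm, with the 581 CPM in Aspirin replicate 1 (0.59 ± 0.50). Cell cycle genes lay above 0 in 44 of 48 with a median of 0.37 (0.99 and -1.0), and -0.58 without that library. Ccne2, a cyclin of the start of DNA replication, stood at 4.21 to 4.94 CPM against 5.62 to 13.5 CPM, all 6 above control (0.71 ± 0.32). Heat shock and unfolded protein response genes lay above 0 in 29 of 37 (median 0.24, from 0.13 to 0.34 over the alternatives). Their median was 0.43 for aspirin and -0.01 for hydrogel. In that list Creld2, a chaperone-like protein of the endoplasmic reticulum, stood at 8.02 to 10.5 CPM in the controls and at 51.8, 26.6 and 9.23 CPM with aspirin, and at 7.53 to 10.3 CPM with hydrogel. Mitochondrially encoded genes had an arm median of -0.02 made of -0.61 and 0.41. Nuclear genes of the respiratory chain lay below 0 in 34 of 40 with a median of -0.18 (-0.29 and -0.02), 0 of them at an unadjusted p under 0.05.

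Among the remaining cell type lists, mast cell and eosinophil markers had a median of 0.28, while Kit, the stem cell factor receptor of mast cells, stood at 8.85, 12.2 and 6.95 CPM in the controls and 2.74, 4.98 and 6.32 CPM (lowest, median, highest) in the arm, without overlap (-0.94 ± 0.29). Fibroblast and fibro-adipogenic progenitor markers had a median of 0.01, and their member of smallest p was Pi16, a marker of perivascular fibroblasts, at 32.3 to 39.6 CPM against 43.3 to 133 CPM, all 6 above control (0.86 ± 0.36). Red blood cell markers lay below 0 in 9 of 10 (median -0.90; -0.25 for aspirin and -2.22 for hydrogel). Their sum was 2833, 470 and 6387 CPM in the controls, and the median ran from -1.43 without Control replicate 2 to -0.01 without Control replicate 3. Among them was Hba-a1, a haemoglobin alpha chain with a near-identical copy, at 95.3 to 1531 CPM in the controls and 90.1 to 1038 CPM in the arm. T, NK and B lymphocyte markers had a median of -0.42 that became 0.80 without Control replicate 1. Interferon response genes had a median of -0.12, and Irgm2, an interferon-induced GTPase, stood at 45.9, 41.3 and 117 CPM against 24.1 to 41.9 CPM (-1.05 ± 0.33), with Control replicate 3 far above the rest and a log2 fold change of -0.40 without it.

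**Figure D5:**
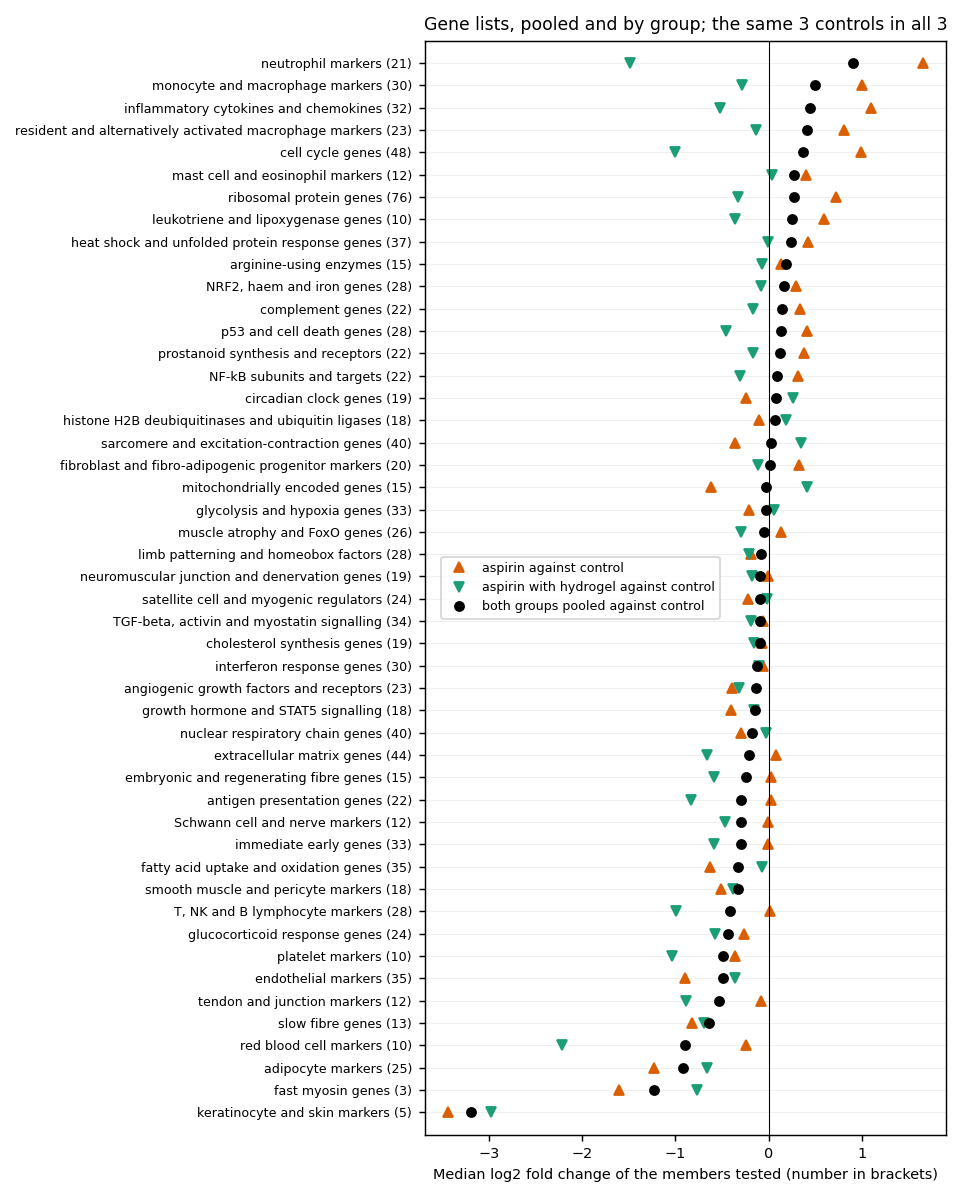
Median log2 fold change of each of 48 gene lists (number of tested genes in brackets) for the pooled arm (black circles), aspirin (orange triangles) and hydrogel (green triangles), all against the same 3 controls. Endothelial, adipocyte and smooth muscle lists lie below 0 in all 3 (arm -0.49, -0.92 and -0.33), while in neutrophil markers the arm value of 0.90 joins groups at 1.65 and -1.49.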

How the data were processed

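Per the labels' protocols, leg muscle RNA of 9 mice (1 µg each) went into libraries made with a kit named SMARTER mRNA. Gene counts deposited by the authors, whole numbers without normalization and 1 column per library, were the values used, and their deposited FPKM table was not used here. The submitters' processing notes name mm10 as the build. The aligner, the counting tool and any use of strand in counting were not given in the sources used here. Coordinates and overlaps came from GENCODE vM21 on mm10, in which 18240 of 18259 gene IDs were found, and promoters from RefSeq (GRCm38.p6).

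The libraries labelled aspirin and aspirin with hydrogel formed 1 arm of 6 against 3 controls. Genes were tested with the quasi-likelihood method of edgeR (edgeR 4.0.16, R 4.3.3, robust fit, TMM scaling, filterByExpr with a minimum count of 10 and a total of 15), with Benjamini-Hochberg adjustment over all 18259 genes and a threshold of 0.05. A fit with 3 groups gave hydrogel against aspirin. Values against control by group share the same 3 controls. Levels are CPM on TMM-scaled library sizes, and no count in a library means less than 0.0554 to 0.100 CPM (3 counts, counting error only). The filter kept 99.7% to 100.0% of the counts. Principal components used log2 CPM of 14572 genes with a prior count of 1. Every pair of libraries differed by more than sampling noise (smallest chi-square per degree of freedom 76.9), and all were kept as separate samples. The scripts were tested on simulated data.

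DESeq2 1.42.0, limma 3.58.1 (voom), other scalings and filters, a replicate block and leaving out libraries were the alternatives. Genes named are the 10 of smallest p in each direction averaging at least 1 CPM (since none passed the threshold), up to 4 members of each described list by smallest p, 25 anchor genes and the 5 genes of smallest p for hydrogel against aspirin. The 6 further genes called by DESeq2 were named after their values were seen. A gene that the rule names is not reported here. The comparison, the 48 gene lists and these rules were chosen with earlier results of these data known. Each sample also carries a code of unknown meaning, whose number is not shared between groups (9 in the controls, 8 with hydrogel, 7 and 10 with aspirin), so a batch marked by it cannot be told apart from treatment.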

Additional observations from a re-analysis of the deposited data

Results flagged for a closer look

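Of 118 results tested within the arm, 11 had 1 library set apart from the other 5. The critical value used is passed by about 1 in 20 independent results from a single population. These results are not independent and the arm joins 2 groups, so 11 of 118 cannot be read against that rate. The measure is the gap to the nearest library divided by the range of the 6, set against Dixon's 95% critical value for 6 samples. For genes it was taken on log2 CPM with a prior count of 1, and for library-wide measures on the values themselves. The CPM printed beside it are not on the log scale, so the measure cannot be worked out from them directly. Aspirin replicate 1 was the library apart in 7 of them. It stood at 2692 CPM in Myh4 (0.722) against 42377 to 122430 CPM in the others, at 1183 CPM in Myh1 (0.657) against 3652 to 6582 CPM, at 1.68 CPM in Pax7 (0.638) against 5.26 to 10.01 CPM and at 82.2 CPM in Col5a3 (0.64) against 128 to 164 CPM. It was the highest in Ccne2 (0.653), at 13.5 CPM against 5.62 to 7.61 CPM, and in Rbm12b2 (0.638), at 16.8 CPM against 7.71 to 10.2 CPM. The share of counts in ribosomal protein genes was also apart in that library (0.717), at 6.51% against 0.794% to 2.41%. Aspirin replicate 2 was the highest in Trim63 (0.639), at 600 CPM against 109 to 202 CPM, and in Pi16 (0.708), at 133 CPM against 43.3 to 60.1 CPM. Aspirin replicate 3 was the lowest in Alkal2 (0.758), at 0.257 CPM against 0.496 to 0.609 CPM. Hydrogel replicate 3 had 0 counts of Pax3 (0.668), against 0.143 to 0.411 CPM.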

How the results depend on the processing

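The arm against control gave 0 genes under every edgeR and limma-voom setting, with 446 to 1355 genes at an unadjusted p under 0.05 (1048 without Aspirin replicate 1, 1169 with sample quality weights), and 16 genes under DESeq2. Hydrogel against aspirin gave 156 genes under DESeq2, 1 with the replicate block and 0 to 2 when 1 library was left out (2 without Aspirin replicate 3). Deviations of same-numbered libraries correlated from -0.441 to 0.615 (median 0.264, against -0.219 for other pairs). Those of the replicates numbered 2 included values below 0, so the numbers were not taken to pair the samples. With the block the arm gave 0 calls. Scaling by library size alone took the all-gene median from -0.05 to -0.51 between hydrogel and aspirin and from 0.05 to 0.07 for the arm. Genes without overlap numbered 484, 320 with library size alone, 994 without Aspirin replicate 1 and Hydrogel replicate 3, and 625 to 1451 when 1 library was left out, fewer libraries being easier to separate.

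Of 113 named genes 105 kept their direction in every alternative that gave a value (17 to 20 each), as did 23 of 48 list medians, and the cause of each change below was not tested. Fbxo32 went from -0.09 to 0.054 with library size alone and 0.19 without both libraries (-0.98 to 0.20 leaving out 1). Trim63 went from -0.01 to 0.10, 0.20 and, with the block, 0.058 (-0.59 to 0.30). Pax7 went to 0.012 with quality weights and 0.056 without both (-0.21 to 0.17). Brinp3, at 0 in 3 libraries, went from 2.35 to -0.22 with voom, -1.55 with quality weights and -1.64 in the 3-group fit. Il6 went to -0.85 with quality weights and Myh4 to -0.034 with voom. Leaving out 1 library moved Perp between -3.77 and 0.74 and Cxcl10 between -2.65 and 0.42. Differences in library-wide measures moved from -1.18 to 3.67 percentage points (top 10 genes), -2.13 to 0.724 (mitochondrial) and -0.219 to 0.939 (ribosomal, -0.058 without both), and from -33.9 to 20.2 on the first component.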
